A study of Mus musculus with 15 samples.

Results

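Genes for 10 of the phosphodiesterases that hydrolyse cyclic AMP were followed across sorted mouse adipocytes. The 10 genes were chosen by name, as the members of the PDE3, PDE4, PDE7 and PDE8 families, and each had 1 probe set among the 25206 analysed. The 5 groups came from UCP1/Tomato mice aged 8 to 10 weeks. White adipocytes (WAT, 4 arrays) were UCP1-negative cells from inguinal fat of untreated mice, and brown adipocytes (BAT, 3 arrays) were UCP1-positive cells from brown fat of untreated mice. The other groups were UCP1-positive cells from inguinal fat of mice given 1 drug each. CL316243 (CL, 3 arrays) stimulates beta-adrenergic receptors on adipocytes. Roscovitine (RS, 2 arrays) blocks cyclin-dependent kinases, and rosiglitazone (RG, 3 arrays) activates the nuclear receptor PPARG. The labels name the sorting marker UCP1(GFP), and which reporter the gate read remains unclear. They give no dose, treatment time or sex, and do not say whether arrays came from separate animals or pools. P-values therefore measure the spread between these samples, which may be technical. The samples hold no UCP1-positive inguinal cells without a drug, and for CL, RS and RG against WAT the drug and the gate cannot be told apart.

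Cyclic AMP carries the signal of noradrenaline inside adipocytes: it activates protein kinase A, which starts lipolysis and, in brown and beige cells, heat production and transcription of thermogenic genes. Phosphodiesterases end the signal by hydrolysing the nucleotide. PDE3 enzymes are inhibited by cyclic GMP, and PDE3B is the form through which insulin restrains lipolysis in adipocytes. PDE4 enzymes are specific for cyclic AMP and are the targets of rolipram, and their long forms are phosphorylated by protein kinase A. PDE7 and PDE8 enzymes are also specific for cyclic AMP and are insensitive to rolipram.

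Promoter windows are shown for Pde4d, Pde4a and Pde7b. Of the genes that had a window, these differed most between the white and the UCP1-positive groups or among the treated ones. No window was found for Pde3a, Pde3b and Pde7a. RefSeq (GRCm38.p6) windows of 300 bases, 250 before a transcript start and the rest after it, were found for 7 of the 10 genes, 16 windows in all, of which those of Pde8b overlap. Each line is written 5′ to 3′ on the gene's strand, in lower case, with any match to TGACG or its reverse complement CGTCA in capitals; TGACG is the core of the cyclic AMP response element TGACGTCA.
Pde4d, chr13:108653927-108654226, plus strand: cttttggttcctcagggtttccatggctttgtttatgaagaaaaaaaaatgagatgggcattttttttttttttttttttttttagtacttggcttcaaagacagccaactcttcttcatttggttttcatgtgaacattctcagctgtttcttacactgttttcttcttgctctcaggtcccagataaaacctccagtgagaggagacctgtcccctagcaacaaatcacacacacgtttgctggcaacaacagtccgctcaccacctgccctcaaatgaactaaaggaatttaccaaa
Pde4a, second of 3 starts, chr9:21183851-21184150, plus strand: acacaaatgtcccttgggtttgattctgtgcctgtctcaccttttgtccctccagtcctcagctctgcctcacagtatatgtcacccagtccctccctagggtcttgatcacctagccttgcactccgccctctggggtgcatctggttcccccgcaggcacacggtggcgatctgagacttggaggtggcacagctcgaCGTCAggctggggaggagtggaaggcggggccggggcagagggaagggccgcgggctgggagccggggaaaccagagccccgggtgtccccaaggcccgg
Pde7b, chr10:20548279-20548578, minus strand: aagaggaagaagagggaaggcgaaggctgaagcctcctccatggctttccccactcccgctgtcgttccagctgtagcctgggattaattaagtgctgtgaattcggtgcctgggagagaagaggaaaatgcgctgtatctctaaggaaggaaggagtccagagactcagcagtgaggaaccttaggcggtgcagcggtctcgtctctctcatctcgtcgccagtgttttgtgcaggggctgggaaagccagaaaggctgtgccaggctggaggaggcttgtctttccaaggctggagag
The whole element TGACGTCA was in none of the 16 windows and in 1.79% of the 32851 RefSeq windows of this length. The core was in 4 of the 16 windows, 1 each of Pde4a, Pde4b, Pde8a and Pde8b, against 20.8% of all windows, counted on both strands. The Pde4a window shown was the 1 of its 3 that held a match, which began 50 bases before the start. The Pde4d and Pde7b windows held no match. These windows cover single starts of genes that have several, and the array gives 1 value per gene, so the starts in use were not measured.

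Ucp1, the marker of the gate, lay between 3.2 and 4.47 on the log2 scale in WAT, between 10.19 and 11.22 in BAT and CL, and between 6.05 and 8.88 in RS and RG. Adipoq, the adipocyte hormone adiponectin, lay between 7.85 and 11.04 on all arrays. The markers of other cell types also moved with the groups. The mean log2 level of 15 macrophage markers was 7.48 to 8.57 in WAT and 4.90 to 6.18 in all other arrays, and that of 11 stromal and preadipocyte markers was 7.60 to 9.34 in WAT and 5.44 to 7.38 elsewhere. The 12 mature adipocyte markers averaged 7.49 in WAT 4, 8.70 to 9.18 in the other WAT arrays and 9.12 to 9.96 in the UCP1-positive groups. WAT 4 thus had the lowest adipocyte level and the highest macrophage and stromal levels of the 15 arrays. The 12 endothelial markers averaged 4.16 in RS 3 and 6.21 in RS 4. Because each array holds RNA from many sorted cells, fewer cells of a type and less RNA per cell cannot be told apart. The part of these marker shifts in the results was not tested.

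Differences were tested with limma in 1 fit of all 15 arrays, and a gene was called where its p-value, adjusted by Benjamini-Hochberg over all probe sets, was under 0.05. In BAT against WAT, 2 phosphodiesterases were higher and 1 was lower, where 44% of all probe sets were called, 27.6% higher and 16.4% lower. In CL against WAT, 3 were higher and none lower (all probe sets 15.2% and 9.97%, together 25.2%). In RS against WAT, 1 was higher and none lower (11.1% and 10.3%, together 21.4%). In RG against WAT, 3 were higher and none lower (5.19% and 6.24%, together 11.4%). With only 10 genes, nothing particular to the phosphodiesterases is read from these counts. Under quantile normalization the RS count was 3, with 4.57% of all probe sets called higher and 5.17% lower. Without CL 4 the CL count was 1, without RG 4 the RG count was 0, and the RS count was 0 without WAT 2, WAT 4, RS 3 or RS 4 and 2 without WAT 1 or BAT 3. The median log2 difference of the 10 genes was 0.11, 0.10, -0.31 and 0.01 in BAT, CL, RS and RG against WAT, beside 0.18, 0.13, 0.13 and 0.10 over all probe sets. The WAT arrays also had a wider spread of values (SD over probe sets 1.91 to 2.00) than the others (1.65 to 1.85). Centring the arrays on their medians turned the shares called higher and lower into 20.6% and 19.4% in BAT and 7.68% and 11.9% in RS. All 4 comparisons share the WAT arrays. Leaving out RS 3 or RS 4 leaves 1 RS array, so RS results without either rest on a single array.

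**Figure D1:**
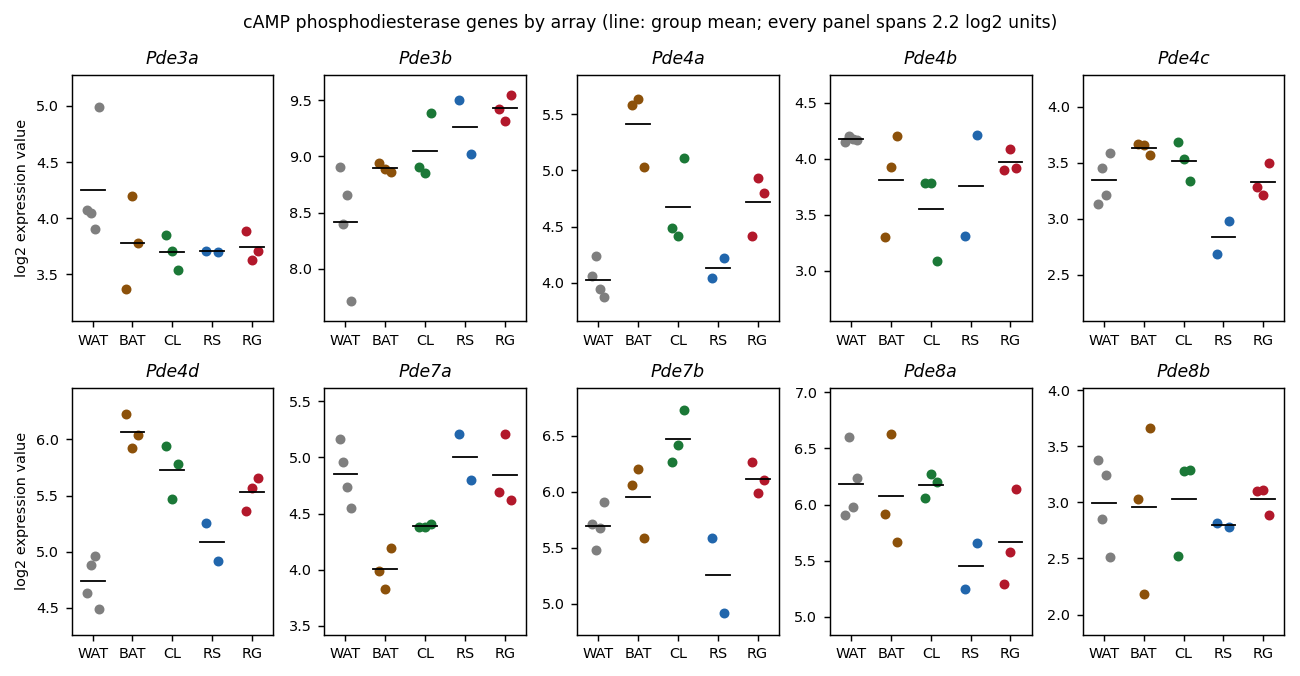
Log2 expression value of each gene on each array (1 point per array) in the 5 groups, with a line at the group mean; the vertical axes differ in position but each spans the same range. Pde4d and Pde4a are highest in BAT, Pde7b is highest in CL, and Pde3b has its lowest point in WAT 4, at 7.71.

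Pde4d, a PDE4 form found in many tissues, had the smallest p-value of the 10 genes between brown and white cells. Its log2 value was 4.63, 4.88, 4.96 and 4.49 in WAT and 6.23, 5.92 and 6.04 in BAT. It was 5.94, 5.47 and 5.78 in CL, 5.36, 5.57 and 5.66 in RG, and 5.26 and 4.92 in RS. Every BAT, CL and RG array lay above every WAT array, while RS 4 fell within the WAT range and RS 3 above it. The level was 2.5-fold higher in BAT than in WAT (log2 difference 1.32 ± 0.17, SE, n = 3 and 4, adjusted p = 7.52e-05). It was 1.99-fold higher in CL (0.99 ± 0.17, adjusted p = 0.0014) and 1.73-fold higher in RG (0.79 ± 0.17, adjusted p = 0.0101). In RS the difference from WAT was 0.35 (95% interval -0.06 to 0.76, adjusted p = 0.195). RS also lay below BAT, by 0.97 log2 units (1.96-fold, adjusted p = 0.0189). RS against CL gave -0.64 (95% interval -1.07 to -0.21, adjusted p = 0.126) and RS against RG -0.44 (-0.87 to -0.01, adjusted p = 0.263), so neither passed the test. By group mean the order was BAT, CL, RG, RS and WAT, and no pair of neighbours in it passed the test. The RG call was lost without RG 4 (0.72, adjusted p = 0.0546). Without RS 4, which leaves RS 3 alone in its group, the difference between RS and BAT was -0.80. In a fit of the RS and BAT arrays alone that difference was not called (adjusted p = 0.157). Quantile normalization of the deposited values brought RS against WAT to 0.65 and past the threshold (adjusted p = 0.0452). It did the same for RG against BAT, at -0.73 (adjusted p = 0.0247), which in the main test was -0.53 (95% interval -0.92 to -0.15, adjusted p = 0.0607).

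Pde4a, the PDE4 form whose long variants bind to membranes and scaffold proteins, moved in the same groups. Its log2 values were 4.06, 4.24, 3.94 and 3.87 in WAT and 5.58, 5.64 and 5.03 in BAT. CL held 4.49, 4.42 and 5.11, RG held 4.42, 4.93 and 4.80, and RS held 4.04 and 4.22. The BAT, CL and RG arrays all lay above the WAT arrays, and both RS arrays lay inside the WAT range. The level was 2.62-fold higher in BAT than in WAT (1.39 ± 0.205 log2 units, SE, adjusted p = 0.000177), 1.56-fold higher in CL (0.65 ± 0.205, adjusted p = 0.032) and 1.61-fold higher in RG (0.69 ± 0.205, adjusted p = 0.0415). RS differed from WAT by 0.10 (95% interval -0.39 to 0.60). Against BAT, RS was lower by 1.29 log2 units (2.44-fold, adjusted p = 0.0118) and RG by 0.70 (1.62-fold, adjusted p = 0.0446). CL lay 0.74 below BAT without passing the test (adjusted p = 0.0837), though quantile normalization moved it past the threshold (adjusted p = 0.0438).

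The call in BAT against WAT held in each of the 21 alternatives that tested Pde4a, but each other call was lost in some. The CL call was lost without WAT 1, WAT 3, WAT 4 or CL 4 (differences 0.43 to 0.66, adjusted p 0.0518 to 0.171). The RG call was lost without any 1 of the 4 WAT arrays, RG 3 or RG 4 (0.58 to 0.76, adjusted p 0.0531 to 0.14). With array medians centred the CL difference was 0.59 (adjusted p = 0.0526). The difference between RG and BAT was not called without 1 of 9 arrays, which were WAT 1 to 3, BAT 1, BAT 3, CL 1 and each RG array (-0.81 to -0.55, adjusted p 0.0512 to 0.165). That between RS and BAT was -1.20 without RS 3, which leaves RS 4 alone in its group. Neither was called in a fit of the compared arrays alone (adjusted p = 0.0681 for RG and 0.0988 for RS), nor was RG with array medians centred (-0.61, adjusted p = 0.0759). The mean of Pde4a over all arrays was 4.59, under the level of 5 used as a filter on low values.

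**Figure D2:**
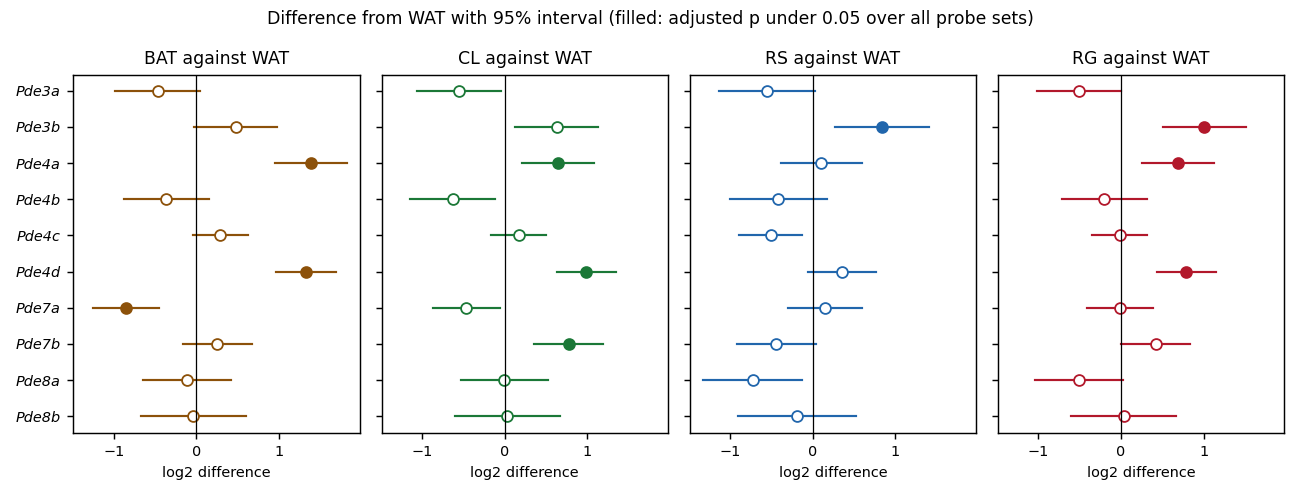
Log2 difference of each of the 10 genes from WAT in BAT, CL, RS and RG, with its 95% interval; filled points have an adjusted p under 0.05 over all probe sets. Pde4d and Pde4a are filled in BAT, CL and RG, Pde3b in RS and RG, Pde7b in CL, and Pde7a, on the negative side, in BAT.

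The other PDE4 genes showed no call against WAT. Pde4b, the form best known from leukocytes and inflammation, lay at 4.15, 4.20, 4.18 and 4.17 in WAT, an SD of 0.021. It ranged from 3.3 to 4.20 in BAT, 3.09 to 3.78 in CL, 3.31 to 4.21 in RS and 3.90 to 4.09 in RG. The CL and RG arrays lay below all WAT arrays, and BAT and RS overlapped them. CL 1 and CL 3 both lay at 3.78 and CL 4 at 3.09. In CL the difference was -0.62 (95% interval -1.14 to -0.11, adjusted p = 0.0679). That value passed the threshold with array medians centred (adjusted p = 0.0484) and in a fit of the CL and WAT arrays alone (adjusted p = 0.0374). It also did so without BAT 1, RS 3 or RS 4, at an unchanged difference. The CL difference was not called in any other alternative that tested it, including without CL 4 and without WAT 4 (-0.63, adjusted p = 0.112). The mean of Pde4b over all arrays was 3.88, under the level used as a filter on low values. Ptprc, the common leukocyte antigen, lay between 5.52 and 7.38 in WAT and between 4.00 and 5.78 in CL. The part of Ptprc in the Pde4b values was not tested.

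Pde4c, the least widely expressed PDE4 gene, was lowest after roscovitine. It measured 2.69 and 2.98 in RS, under every array of the other groups, which ranged from 3.13 to 3.68. The RS mean lay 0.80 log2 units below that of BAT (1.74-fold, SE 0.186, adjusted p = 0.0306). Against WAT the difference was -0.51 (95% interval -0.89 to -0.13, adjusted p = 0.0511), against CL -0.68 (-1.08 to -0.29, adjusted p = 0.0831) and against RG -0.49 (-0.89 to -0.10, adjusted p = 0.179). With quantile normalization the first was called (-0.65, adjusted p = 0.027), as was RS against CL (-0.77, adjusted p = 0.0459). With array medians centred RS against WAT was called too (adjusted p = 0.0323), and without WAT 1 as well (adjusted p = 0.0413). The call against BAT was lost without BAT 1 (-0.78, adjusted p = 0.0601) or BAT 3 (-0.78, adjusted p = 0.065). It was also lost in a fit of the RS and BAT arrays alone (adjusted p = 0.214). Without RS 3, which leaves RS 4 alone in its group, the difference from BAT was -0.65. Pde4c never exceeded 3.68, where the array medians lay between 3.33 and 3.47, so its signal was weak throughout.

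Pde3b, the adipocyte form that insulin activates through AKT, was higher after rosiglitazone and roscovitine. Its log2 values in WAT were 8.91, 8.40, 8.66 and 7.71. RG measured 9.42, 9.32 and 9.55, RS 9.50 and 9.02, CL 8.91, 8.85 and 9.39, and BAT 8.94, 8.89 and 8.86. All RG and RS arrays lay above all WAT arrays, whereas the BAT and CL arrays overlapped WAT 1. The level was 2.01-fold higher in RG than in WAT (log2 difference 1.01 ± 0.237, SE, n = 3 and 4, adjusted p = 0.0146). It was 1.79-fold higher in RS (0.84 ± 0.268, n = 2 and 4, adjusted p = 0.0376). In CL the difference was 0.63 (95% interval 0.13 to 1.13, adjusted p = 0.0622) and in BAT 0.48 (-0.03 to 0.98, adjusted p = 0.112). The order by mean was RG, RS, CL, BAT and WAT, and none of the neighbours in it passed the test. RG against BAT, with no overlap of arrays, gave 0.53 (95% interval 0.00 to 1.07, adjusted p = 0.162).

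The lowest Pde3b value belonged to WAT 4, the array with the lowest mature adipocyte markers, and Pde3b moved with those markers over the arrays. In WAT 1 to 4 the marker mean was 9.18, 8.70, 9.11 and 7.49. It was 9.18, 9.21 and 9.12 in BAT, 9.30, 9.23 and 9.72 in CL, 9.68 and 9.59 in RS, and 9.60, 9.55 and 9.96 in RG. The lowest 2 arrays and the highest array, RG 4, were the same for Pde3b and for the marker mean. Of the 12 markers 4 were called higher in BAT, 3 in CL, 5 in RS and 8 in RG, and none lower. Of all probe sets, 27.6%, 15.2%, 11.1% and 5.19% were called higher in those groups. The part of this marker difference in the Pde3b result was not tested. Without WAT 4 the RS difference was 0.60 (adjusted p = 0.0717). The RS call was also lost without WAT 2 (0.83, adjusted p = 0.0661). The RS difference was 0.60 without RS 3 and 1.08 without RS 4, each of which leaves 1 RS array. Without both WAT 4 and RS 3 it was 0.36. With array medians centred or in a fit of the RS and WAT arrays alone it was not called (adjusted p = 0.0563 and 0.112). The RG difference was not called without RG 2 (1.01, adjusted p = 0.0518) or RG 4 (0.95, adjusted p = 0.0675). Without WAT 4 the RG difference fell to 0.77 and was still called (adjusted p = 0.0295). Those of BAT and CL then fell to 0.24 (adjusted p = 0.34) and 0.39 (adjusted p = 0.169). Without WAT 1 the BAT and CL differences passed the threshold (0.64, adjusted p = 0.0406, and 0.79, adjusted p = 0.0266).

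**Figure D3:**
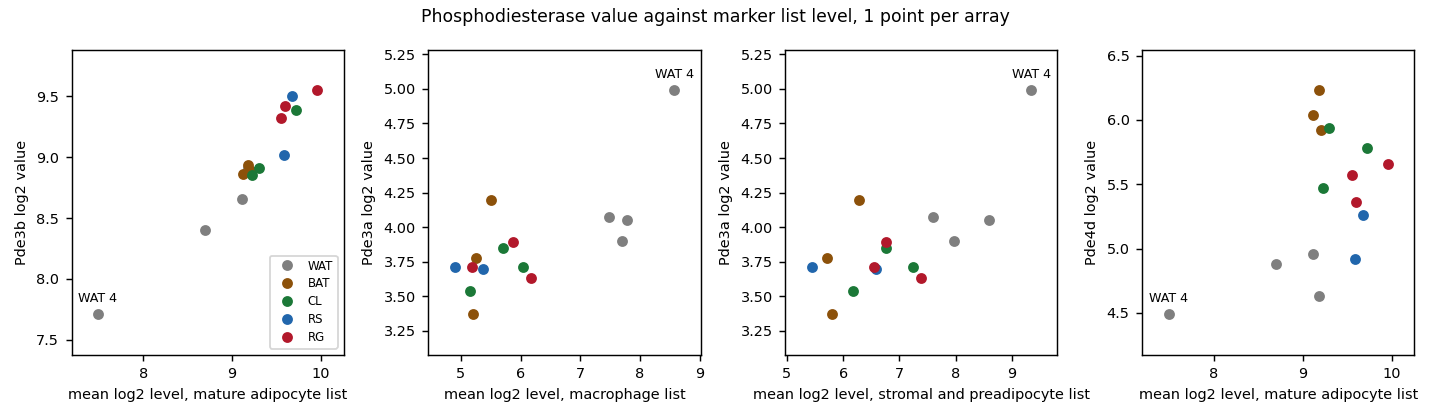
Log2 value of Pde3b, Pde3a or Pde4d on each array against the mean log2 level of a marker list on the same array, coloured by group, with WAT 4 named. Pde3b is lowest, at 7.71, where the mature adipocyte markers are lowest, Pde3a is highest, at 4.99, where the macrophage and stromal markers are highest, and Pde4d is plotted against the same adipocyte markers, which lie at 9.12 to 9.21 in BAT and at 9.59 and 9.68 in RS.

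Pde3a, the PDE3 form of heart, vessels and platelets, did not pass the test in any comparison. It lay at 4.07, 4.05 and 3.90 in the first 3 WAT arrays and at 4.99 in WAT 4. BAT spanned 3.37 to 4.20, CL 3.54 to 3.85, RS 3.70 to 3.71 and RG 3.63 to 3.89. All CL, RS and RG arrays lay under the WAT arrays, by 0.51 to 0.55 log2 units on average, with adjusted p-values of 0.101, 0.153 and 0.179. Without WAT 4 these differences were -0.31, -0.30 and -0.26, and that of BAT moved from -0.47 to -0.22. The SD within WAT was 0.497. WAT 4, which set this spread, also had the highest macrophage and stromal marker levels, 8.57 and 9.34. Its endothelial and mural marker levels, 5.84 and 4.72, were the lowest of the WAT arrays. The part of these marker levels in the Pde3a values was not tested. Without BAT 3 the difference of BAT from WAT passed the threshold (-0.68, adjusted p = 0.0497).

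Pde7a, the PDE7 form known from T lymphocytes and muscle, was the member that fell in brown cells. Its log2 values were 5.16, 4.96, 4.74 and 4.55 in WAT and 3.99, 3.83 and 4.19 in BAT, with no overlap. CL measured 4.38, 4.38 and 4.41, just under the lowest WAT array, while RS (5.21 and 4.80) and RG (4.69, 5.21 and 4.62) overlapped the WAT arrays. In BAT the level was lower by 0.85 log2 units (1.80-fold, SE 0.187, adjusted p = 0.00254), a call kept in all 21 alternatives that tested it. CL differed from WAT by -0.46 (95% interval -0.86 to -0.06, adjusted p = 0.0802). Without both WAT 4 and RS 3 that difference was called (-0.56, adjusted p = 0.0464). RS and RG differed from WAT by 0.15 (-0.30 to 0.60) and -0.01 (-0.41 to 0.39). Both lay above BAT, RS 2.00-fold (log2 difference 1.00 ± 0.223, adjusted p = 0.0254) and RG 1.79-fold (0.84 ± 0.2, adjusted p = 0.0146). The order by mean was RS, WAT, RG, CL and BAT, and its neighbours did not pass the test against each other. The RS call was lost without BAT 1 (0.99, adjusted p = 0.0504) or BAT 3 (0.91, adjusted p = 0.0666). It was also lost in a fit of the RS and BAT arrays alone (adjusted p = 0.157). Without RS 3, which leaves RS 4 alone in its group, the difference between RS and BAT was 0.80. The RG call was lost without RG 3 (0.65, adjusted p = 0.0692).

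Lymphocyte and skeletal muscle markers were measured beside Pde7a. Their part in the Pde7a result was not tested. The mean of 8 lymphocyte markers was 3.33 to 4.54 in WAT and 3.08 to 3.25 in BAT. It was 3.56 to 4.74 in CL, 3.14 to 3.67 in RS and 3.63 to 3.83 in RG. In BAT against WAT 1 of the 8, Ptprc, was called lower (6.57-fold, adjusted p = 0.000251) and 7 were not called. Of all probe sets, 16.4% were called lower there. Cd3e, a subunit of the T-cell receptor complex, was 2.29-fold higher in CL than in WAT (adjusted p = 0.00514). Ptprc was 2.51-fold lower in CL (adjusted p = 0.0318). Arrays overlapped for both, and the other 6 markers were not called in CL. The mean of 7 skeletal muscle markers was 2.66 to 2.93 in WAT and 3.08 to 3.59 in BAT. Of these 7, 3 were called higher and none lower in BAT, beside 27.6% and 16.4% of all probe sets.

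Pde7b, the PDE7 form of brain, heart and other tissues, was highest after CL316243 and lowest after roscovitine. Its log2 values were 6.26, 6.42 and 6.73 in CL and 5.59 and 4.92 in RS. WAT measured 5.71, 5.48, 5.68 and 5.91, BAT 6.06, 6.20 and 5.59, and RG 6.26, 5.99 and 6.10. The CL arrays lay above all WAT, BAT and RS arrays, and CL 1 tied with the highest RG array. The level was 1.71-fold higher in CL than in WAT (log2 difference 0.78 ± 0.197, SE, n = 3 and 4, adjusted p = 0.0118). It was 2.32-fold lower in RS than in CL (log2 difference -1.22 ± 0.236, n = 2 and 3, adjusted p = 0.0285), the single one of the 10 genes called between drugs. RS lay 0.86 below RG (95% interval -1.36 to -0.36, adjusted p = 0.0825) and 0.44 below WAT (-0.92 to 0.04, adjusted p = 0.161). RG lay 0.42 above WAT (0.00 to 0.84, adjusted p = 0.175). The order by mean was CL, RG, BAT, WAT and RS, and no neighbours in it passed the test.

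The CL call of Pde7b was lost without CL 4 (0.64, adjusted p = 0.0628). The difference between RS and CL was not called without CL 3 (-1.24, adjusted p = 0.0805) or CL 4 (-1.08, adjusted p = 0.0719). It was not called in a fit of the RS and CL arrays alone either (adjusted p = 0.173). Without RS 4, which leaves RS 3 alone in its group, it was -0.88. Without RS 3, which leaves only RS 4, the array with the lowest Pde7b value (4.92), RS against RG was -1.20. Quantile normalization brought BAT against WAT past the threshold (0.61, adjusted p = 0.0243).

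The PDE8 genes, which encode the forms with the highest affinity for cyclic AMP, showed no call. Pde8a spanned 5.91 to 6.60 in WAT, 5.67 to 6.63 in BAT, 6.06 to 6.27 in CL, 5.25 to 5.66 in RS and 5.29 to 6.14 in RG. Both RS arrays lay under every WAT and BAT array, with a difference from WAT of -0.73 (95% interval -1.33 to -0.13, adjusted p = 0.0739). It passed the threshold without BAT 3 (adjusted p = 0.0476). In CL the difference from WAT was -0.01 (-0.53 to 0.52). Pde8b lay between 2.18 and 3.66 on all arrays, under the median of its own array on 13 of the 15, and its group means differed by 0.23 at most. Its intervals against WAT reached from -0.91 to 0.67, so differences smaller than these could not be seen.

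Among the UCP1-positive groups most calls fell between RS and BAT. There, 1 was higher and 3 were lower in RS, where 3.67% of all probe sets were called, 1.33% higher and 2.34% lower. Without RS 3 this count was 1, without BAT 1 or BAT 3 it was 2, and in a fit of those arrays alone it was 0. RG against BAT gave 1 higher and 1 lower (all probe sets 5.85% and 8.42%, together 14.3%; with array medians centred 7.99% and 5.49%). RS against CL gave 1 lower, Pde7b, where 1.27% of probe sets were called, 0.476% higher and 0.797% lower (0.778% and 0.786% with quantile normalization). No member was called by limma in RS against RG, CL against RG or CL against BAT, in which 0.682%, 2.87% and 2.05% of all probe sets were called in either direction. Centring the array medians turned the shares called higher and lower there from 0.345% and 0.337% to 0.266% and 0.551%, from 1.65% and 1.22% to 1.19% and 1.53%, and from 0.635% and 1.42% to 0.75% and 1.06%. At an unadjusted p under 0.05, 4, 1 and 2 of the 10 genes passed in those comparisons, where 18.6%, 19.4% and 18.9% of all probe sets did. The 95% intervals of CL against RG reached from -0.97 (Pde4b) to 1.07 (Pde8a), so these data do not show that the drugs acted alike. The comparisons of RS, CL and RG with BAT share the BAT arrays, and those of RS the RS arrays.

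**Figure D4:**
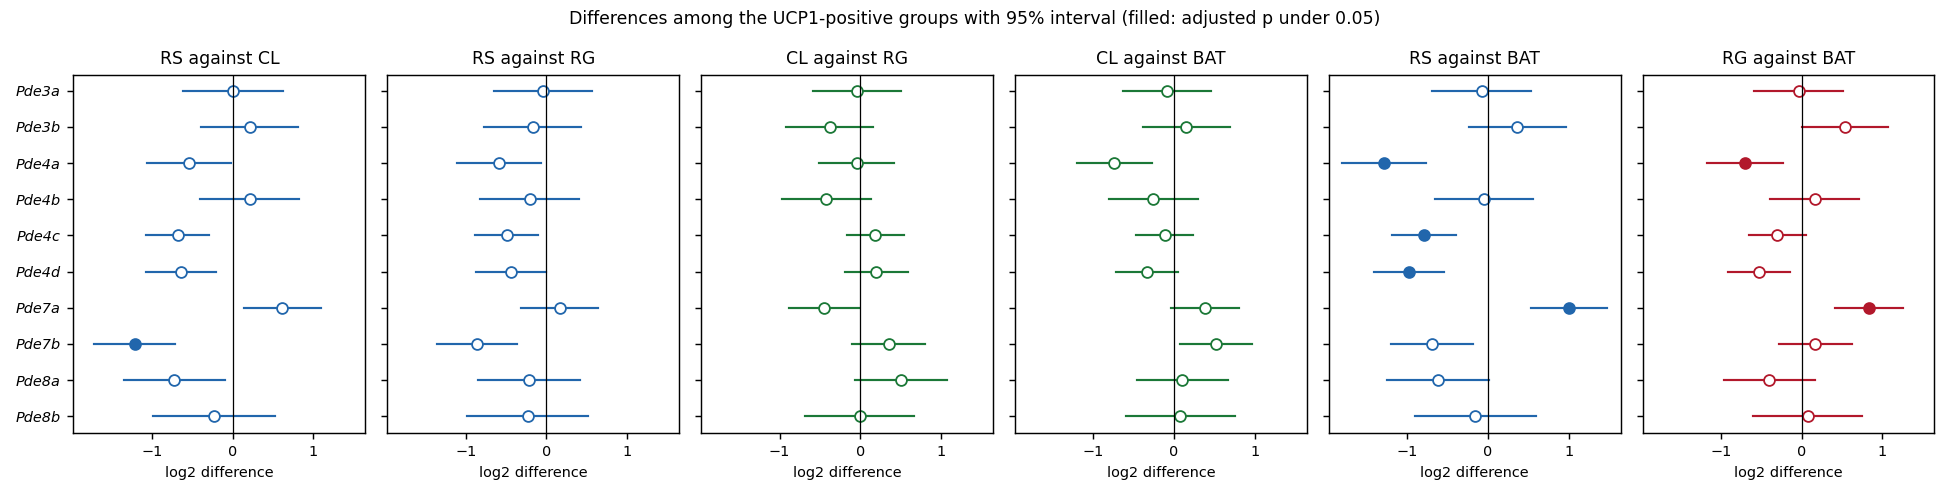
Log2 difference of each gene between pairs of UCP1-positive groups, first minus second, with its 95% interval; filled points have an adjusted p under 0.05. In RS against BAT the points of Pde4a, Pde4c and Pde4d are filled on the negative side and that of Pde7a on the positive side, and in RS against CL only Pde7b is filled.

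The 14 other genes named as phosphodiesterases encode enzymes for cyclic GMP or for both nucleotides and subunits of the photoreceptor enzyme. Of these, 2 were called higher and 1 lower in BAT against WAT, 1 and 1 in CL, none and 1 in RS, and 1 and 1 in RG. Among all probe sets, 44%, 25.2%, 21.4% and 11.4% were called in either direction in these comparisons. In BAT against WAT, Pde6a and Pde6b, catalytic subunits of the photoreceptor enzyme, were higher (by 0.71 and 0.64 log2 units, at mean levels of 2.72 or less) and Pde6d, which carries prenylated proteins, was lower (-0.72, adjusted p = 0.0105). Pde10a, an enzyme for both nucleotides, was lower in CL (-0.68, adjusted p = 0.0157) and RG (-0.75, adjusted p = 0.0179). Pde6g, an inhibitory photoreceptor subunit, was higher in CL by 0.49 (adjusted p = 0.0231). Pde1a, which calmodulin activates, was higher in RG than in WAT by 0.80 (adjusted p = 0.0323) and lower in CL than in RG by 0.93 log2 units (1.91-fold, adjusted p = 0.049). Pde2a, which cyclic GMP activates, was lower in RS by 1.69 (adjusted p = 0.0367), with RS and WAT arrays that overlapped. In that comparison 7 of 12 endothelial markers were called lower, beside 10.3% of all probe sets. Their part in the Pde2a result was not tested.

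The rest of the cyclic AMP pathway was counted in 7 lists, from receptors to response genes, with 65 of 73 listed genes measured under a symbol. In BAT 13 were called higher and 20 lower, in CL 12 and 13, in RS 8 and 13, and in RG 8 and 9. Of all probe sets, 27.6% and 16.4% were called higher and lower in BAT, 15.2% and 9.97% in CL, 11.1% and 10.3% in RS, and 5.19% and 6.24% in RG. Of these totals the CL one was 13 without CL 4, the RS one 9 without WAT 2 or RS 3, and the RG one 6 without RG 4, with 8 to 11 without WAT 2, WAT 4, BAT 3, CL 1, RG 2 or RG 3. Without WAT 4 the CL total was 16. Their median log2 differences were -0.19, -0.12, -0.14 and -0.03, beside medians over all probe sets that were above 0 in each comparison. Of 8 receptor genes, Ptger4, a prostaglandin E2 receptor that raises cyclic AMP, was lower in BAT, RS and RG (-1.28, -1.84 and -1.73). Hcar1, the lactate receptor that lowers cyclic AMP, was higher in RS and RG (1.57 and 1.38), and Hcar2, the nicotinic acid receptor, was lower in BAT and CL (-0.89 and -0.83). Of 6 G-protein genes, Gnai2, an inhibitory alpha subunit, was lower in all 4 comparisons (-1.01 in BAT, -0.79 in CL, -1.04 in RS, -0.95 in RG). Gnai3, another inhibitory subunit, was lower in BAT, CL and RS (-1.22, -1.07 and -1.20). Rgs2, which shortens G-protein signals, was higher in BAT and CL (1.04 and 0.76).

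Among the 10 adenylyl cyclases, which make cyclic AMP, Adcy3 was higher in BAT (5.40-fold, adjusted p = 6.68e-05) and in CL (3.25-fold, adjusted p = 0.00185). Adcy5 was higher in RG (2.19-fold, adjusted p = 0.0195), Adcy7 was lower in all 4 groups (-0.91, -0.95, -1.05 and -0.83), and Adcy4 was lower in RS (-1.76). Adcy8, at mean levels of 3.16 or less, was higher in BAT, CL and RS (0.89, 0.77 and 0.76). Of 10 effector genes, Prkar2b, the regulatory subunit of protein kinase A that prevails in fat, was higher in BAT, CL, RS and RG (1.73, 1.76, 1.31 and 1.47). Prkaca, the main catalytic subunit, was higher in BAT, CL and RG (0.96, 0.92 and 1.18), and in RS by 0.82 (adjusted p = 0.0447). In RS Rapgef3, an exchange factor that cyclic AMP activates, and Prkacb, another catalytic subunit, were lower (-1.30 and -0.64). Of 10 anchoring proteins, 3 were called higher and 2 lower in BAT, 1 and 1 in CL, 2 and 1 in RS, and 2 and none in RG. These counts are to be read against the shares of all probe sets given above for the pathway. Akap1, which holds protein kinase A at mitochondria, was higher in BAT, RS and RG (1.26, 0.86 and 0.83). Akap7 was higher in all 4 groups (0.83, 0.92, 0.96 and 0.88). Akap12 and Akap13 were lower in BAT (-1.01 and -0.76), Akap11 in CL (-0.62) and Akap8 in RS (-0.92).

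Of 8 CREB factors and coactivators none was higher, and 5, 4, 2 and 1 were lower in BAT, CL, RS and RG, where 16.4%, 9.97%, 10.3% and 6.24% of all probe sets were called lower. Crtc3, a CREB coactivator, was lower by 1.79 in BAT and 0.97 in CL, and Creb1 itself was lower in all 4 groups (-0.89, -0.58, -0.80 and -0.95). Of 13 response genes, 3 were higher and 8 lower in BAT, 3 and 4 in CL, 2 and 3 in RS, and 2 and 5 in RG. Ppargc1a, the coactivator of mitochondrial genes, was higher in BAT, CL, RS and RG (4.15-fold, 2.67-fold, 2.18-fold and 2.75-fold). Junb, an immediate early transcription factor, was lower in BAT and CL (-1.12 and -0.87), and Per1, a clock gene, was lower in all 4 groups (-0.87, -0.63, -0.75 and -0.93). Of 16 genes encoding partners of phosphodiesterases and the insulin input of Pde3b, none was higher and 8 were lower in BAT, 1 and 3 in CL, none and 4 in RS, and 1 and 1 in RG, to be read against the same shares of all probe sets. Pik3cb, a catalytic subunit of phosphoinositide 3-kinase, was the one higher in CL (1.9-fold, adjusted p = 0.0242). Arrb2, an arrestin that recruits PDE4 enzymes to receptors, was lower in all 4 (-1.56, -1.09, -1.81 and -1.54). Abhd15, an adipocyte protein that stabilises PDE3B, was higher in RG by 0.64 (mean 4.74 against 4.10 in WAT, adjusted p = 0.0338). A link between Abhd15 and the Pde3b values was not tested. Of the 11 stromal markers 11, 8, 9 and 4 were called lower in BAT, CL, RS and RG, and of the 15 macrophage markers 15, 15, 15 and 14. Their part in the pathway counts was not tested.

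**Figure D5:**
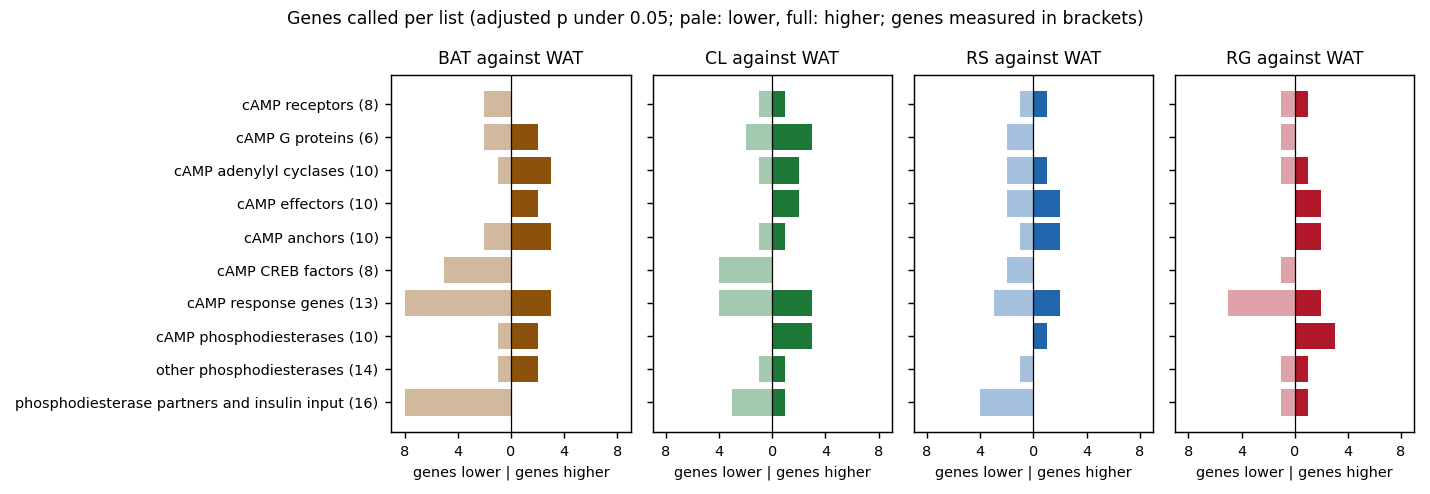
Number of genes called higher (full bars, right) or lower (pale bars, left) per list in BAT, CL, RS and RG against WAT, with the genes measured in brackets. The CREB factors have bars on the lower side only, with 5 of 8 genes in BAT. There 16.4% of all probe sets were called lower. The cAMP phosphodiesterases have 2 genes on the higher side and 1 on the lower side in BAT. On the higher side they have 3 in CL, 1 in RS and 3 in RG, with none lower. Of all probe sets, 27.6%, 15.2%, 11.1% and 5.19% were called higher in BAT, CL, RS and RG.

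The genes whose pattern over the 15 arrays was nearest to each called phosphodiesterase were found by the root mean square difference of log2 values, each gene set relative to its own mean. The search covered 18350 other named genes, and the arrays share their groups and processing. For Pde3b, whose own root mean square deviation was 0.46, these were Csad (0.132), an enzyme of taurine synthesis, Bscl2 (0.145), which encodes the lipid droplet protein seipin, and Itga7 (0.151), an integrin subunit. For Pde4d (0.519) they were Mrpl19 (0.193), a mitochondrial ribosomal protein, Htr1a (0.195) and Dazl (0.197). The last pair had mean log2 levels of only 2.09 and 2.40, below the array medians. For Pde4a (0.551) they were Cyp2j13 (0.223), Cdr1os (0.227) and Ppp1r14c (0.233), all with means of 2.78 or less. For Pde7a (0.41) they were Gda (0.158), the guanine deaminase, Porcn (0.179), which acylates Wnt proteins, and Id3 (0.185), an inhibitor of transcription factors. For Pde7b (0.431) they were Mtpap (0.213), the mitochondrial poly(A) polymerase, Ptcd2 (0.223), a pentatricopeptide protein, and Sars2 (0.226), the mitochondrial seryl-tRNA synthetase.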

How the data were processed

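Expression was measured on 1-colour Affymetrix arrays from 2 ng of total RNA after WT Pico amplification, per the labels' protocols. The values deposited by the authors are on the log2 scale, with 1 value for each probe set on each array. RMA, Affymetrix Expression Console and affy 1.36.1 are named in the submitters' processing notes with no order or settings; genome build and probe-set definition are not given in the sources used here. Of 25206 probe sets, the platform annotation gave 23185 a single gene symbol and 2021 none. No filter on low values was applied. The number of arrays limits the precision.

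The tests used limma 3.58.1 under R 4.3.3 (lmFit, contrasts.fit, eBayes), two-sided, with all 15 arrays in 1 fit, a mean per group, 10 residual degrees of freedom and Benjamini-Hochberg adjustment over all probe sets. RS has 2 arrays and was assumed to vary like the other groups. Leaving out RS 3 or RS 4 leaves 1 RS array, and the spread is then taken from the other groups alone. Intervals are 95% intervals from that fit. The alternatives were quantile normalization, median centring, a filter at a mean above 5, a fit of the compared groups alone, an intensity trend, the replicate number as a block, leaving out WAT 4 with RS 3, and leaving out each array. Titles of different groups share replicate numbers. The deviations of the 24 same-numbered pairs from their group means correlated between -0.88 and -0.05. Deviations from a mean of 2 to 4 arrays depend on each other. These correlations therefore cannot tell whether same-numbered arrays shared animals or a batch. The labels state no pairing, and the numbers were not taken as pairs in the main fit.

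All 10 phosphodiesterases are described. From each other list, up to 3 called genes with the smallest p per comparison against WAT could be named; a gene named so in 1 comparison is given in the others where it was called. For each phosphodiesterase called against WAT, the 3 named genes nearest in pattern are given. Members, lists and alternatives were chosen with earlier results of these data known. Some listed genes are not analysed here.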

Additional observations from a re-analysis of the deposited data

Results flagged for a closer look

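Pde3a in WAT 4 measured 4.99 on the log2 scale, far above the other WAT arrays, which lay between 3.90 and 4.07. The gap to the nearest array made up 0.844 of the group's range, above Dixon's 95% critical value for 4 samples. Only the WAT group, the largest, was tested in this way, so outlying values in the other groups were not looked for. Of the 10 genes tested in WAT 1 was flagged, where chance flags about 1 in 20.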

How the results depend on the processing

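Of the 17 calls on phosphodiesterases, 4 were kept in every alternative that tested them: Pde4a, Pde4d and Pde7a in BAT and Pde4d in CL, all against WAT (Pde4a and Pde7a fell under the filter on low values). The other 13 were lost in at least 1, and no call changed sign. Quantile normalization kept all 17. The number of phosphodiesterases called ranged from 3 to 4 in BAT, 1 to 4 in CL, 0 to 2 in RS and 0 to 3 in RG against WAT when each array was left out in turn. It ranged from 0 to 1 in RS against CL and in RS against RG, 1 to 4 in RS against BAT and 0 to 2 in RG against BAT, and it stayed 0 in CL against RG and CL against BAT. Under quantile normalization it was 3 in RS against WAT, 2 in RS against CL and 1 in CL against BAT. With only the 4 genes above a mean of 5 it was 1 in BAT against WAT, 1 in RS against BAT and 0 in RG against BAT, where fewer genes were tested. In fits of the compared groups alone it was 0 in RS against WAT, CL and BAT and 1 in RG against BAT, and with medians centred it was 1 in RG against BAT. Without both WAT 4 and RS 3 it was 0 in RS against WAT, 1 in RS against RG and 1 in RS against BAT. The replicate block kept 6 of the 17 calls and left 1 phosphodiesterase in CL against WAT and 0 in RS against WAT, RS against CL, RS against BAT and RG against BAT; same-numbered arrays were not taken as pairs. Of the 65 pathway genes, the block left 9 called in CL, 6 in RS and 7 in RG against WAT. In RS, 11 were called under quantile normalization, 9 in the fit of 2 groups and 7 without both WAT 4 and RS 3. Leaving out each array gave 29 to 35 in BAT, 13 to 26 in CL, 9 to 22 in RS and 6 to 20 in RG. Beyond the alternatives' own construction, the cause was not tested. With 2 RS arrays, their number limits every RS comparison, and 6 of the 10 genes have a mean log2 level under 5.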
